A study of Rattus norvegicus with 26 samples.

Results

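The Igf2-H19 region of rat chromosome 1 was examined as a window running from upstream of Ins2 to downstream of H19. Its members were chosen by position, and were then to be selected on their raw counts summed over the 26 libraries, with at most the 6 highest kept. The window held 5 of the 32552 features of the count files, so the limit on counts removed none and there is no feature just outside it. The summed counts were 926154 for Igf2, 395531 for the feature matching Mir675, 115 for Ins2, 30 for Mir483 and 0 for the last. Coordinates below are those of the count files; their genome build is not given in the labels. The window itself was picked with earlier results of these data known.

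The series asked how gene expression in fetal rat hepatocytes compares with that in adult hepatocytes before transplantation, and how it compares with host tissue after the cells have formed colonies in an adult liver. Bulk RNA-seq of total RNA was done on 4 pre-transplant groups of 4 libraries each. These were adult hepatocytes and 3 fetal hepatocyte sorts, named LAP+, LAP+/OC2+ and LAP+/OC2- in the labels, which do not spell the markers out. After transplantation, tissue of the fetal-derived colony and of the surrounding adult host was taken by laser capture from each of 5 animals. The labels give no strain, sex, age or time after transplantation, and do not say which sort gave rise to the colonies. Pre- and post-transplant libraries were made with different kits, so levels are compared only within a stage.

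Igf2 encodes insulin-like growth factor II, a secreted growth factor that acts through the type 1 insulin-like growth factor receptor and is made in large amounts by the fetal liver. H19 is a long noncoding RNA that is the precursor of miR-675. In mice the pair is imprinted: Igf2 is transcribed from the paternal allele and H19 from the maternal allele, under a shared imprinting control region and shared enhancers beyond H19. After birth both genes are repressed in most mouse tissues, the liver among them. Ins2, the neighbouring gene, encodes preproinsulin 2, and Mir483 is a microRNA gene in an intron of Igf2.

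The count files give no gene symbols, and 0 of their identifiers could be paired by identifier with the RefSeq gene table of the GRCr8 build. Names were given by matching distances and strand within the window. The feature with the highest summed count was taken as Igf2, and its start was set equal to that of RefSeq Igf2. All distances were measured from that anchor, so the start of the Igf2 feature is not itself an independent match. ENSRNOG00000020369, at 215828102 to 215846911 on the minus strand, is called the Igf2 feature. Its exons cover 5641 nt, and both RefSeq Igf2 promoter entries have a transcription start whose distance falls to the base on an exon end of this feature. Those exon ends are internal, 8.7 and 12.21 kb downstream of the upstream end of the feature. That upstream end, at which neither promoter entry lies, is called its start site below. ENSRNOG00000040350, at 215745981 to 215746064, is 84 nt long and matches Mir675 in both start and end. ENSRNOG00000036246, at 215832088 to 215832160, matches Mir483 in both ends and is intronic, sharing no base with the Igf2 feature's exons. ENSRNOG00000020405, at 215856971 to 215858034, is called the Ins2 feature because its transcription start lies at the RefSeq distance, and its exons cover 446 nt. ENSRNOG00000051917, at 215828136 to 215828398, has no RefSeq match and lies wholly in exonic sequence of the Igf2 feature.

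RefSeq places Mir675 inside H19, a noncoding gene spanning 2677 nt, and no feature of that extent is among the 5. H19 as a whole was therefore not analysed here. The Mir675 feature counts fragments of long total RNA over the hairpin stretch, which cannot be told apart from fragments of H19 and do not measure the mature microRNA. All 5 features lie on the minus strand. In the direction of transcription the Ins2 feature comes first, 10060 nt upstream of the Igf2 feature, and the Mir675 feature lies 82038 nt downstream of it.

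**Figure D1:**
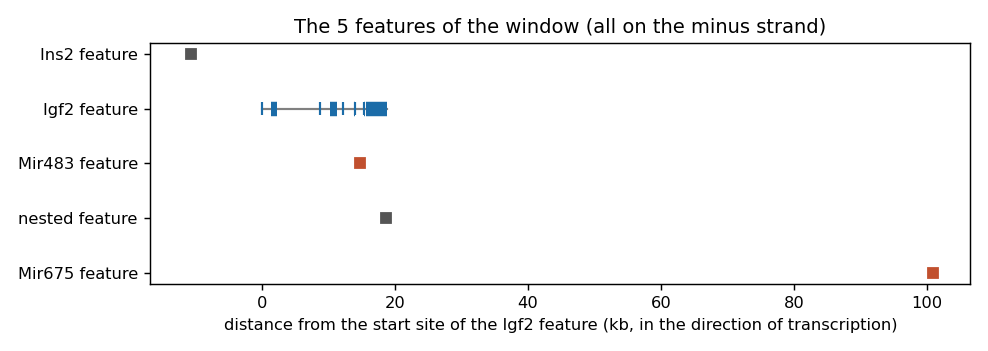
Map of the 5 features of the window, with distance from the start site of the Igf2 feature in kb, in the direction of transcription, on the horizontal axis; blue boxes are exons of the Igf2 feature, the short ones drawn as lines, and squares mark the positions of the others. The Mir675 feature lies 82038 nt downstream of Igf2, the Ins2 feature 10060 nt upstream, and the Mir483 and nested features within its span.

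The hairpin is printed because its 84 nt are the whole stretch over which the second most abundant member was counted; capitals mark the mature arms, and the sequence is RefSeq's (GRCr8).
Mir675 hairpin: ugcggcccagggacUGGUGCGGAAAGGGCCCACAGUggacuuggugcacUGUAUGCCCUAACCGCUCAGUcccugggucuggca

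The mature arms are shown with their seeds, bases 2 to 8, in capitals. Each seed occurred in 1 of the 724 rat mature microRNAs of the table, so neither is shared with another.
rno-miR-675-5p: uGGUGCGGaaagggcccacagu
rno-miR-675-3p: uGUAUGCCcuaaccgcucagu

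The Mir483 hairpin is shown for comparison, with its arms in capitals, since it lies inside Igf2 yet was counted separately.
Mir483 hairpin: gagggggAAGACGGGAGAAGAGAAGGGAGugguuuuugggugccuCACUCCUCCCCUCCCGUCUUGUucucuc

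Both RefSeq promoter entries of Igf2, each from 250 bases before to 50 after a transcription start, are printed because their starts tie the unnamed feature to the gene. Capitals mark a GC box, GGGCGG or its complement CCGCCC. The first lies at chr1:207253931-207254230 and the second at chr1:207250426-207250725, both on the minus strand of GRCr8.
Igf2 promoter 1: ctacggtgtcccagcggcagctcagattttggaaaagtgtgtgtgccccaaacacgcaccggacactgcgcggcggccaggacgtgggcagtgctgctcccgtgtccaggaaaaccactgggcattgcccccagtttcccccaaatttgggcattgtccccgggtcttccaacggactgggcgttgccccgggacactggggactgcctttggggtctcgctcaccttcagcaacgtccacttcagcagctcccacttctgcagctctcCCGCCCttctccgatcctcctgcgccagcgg
Igf2 promoter 2: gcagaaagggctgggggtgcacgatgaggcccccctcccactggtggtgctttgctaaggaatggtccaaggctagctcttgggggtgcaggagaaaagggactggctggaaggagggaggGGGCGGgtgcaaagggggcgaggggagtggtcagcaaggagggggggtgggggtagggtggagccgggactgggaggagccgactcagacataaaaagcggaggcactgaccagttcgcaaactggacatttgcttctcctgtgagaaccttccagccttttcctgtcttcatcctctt

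The Ins2 promoter, at chr1:207273756-207274055 on the minus strand of GRCr8, is shown as the contrasting neighbour. Capitals mark the letters TATAAA, the TATA box motif.
Ins2 promoter 1: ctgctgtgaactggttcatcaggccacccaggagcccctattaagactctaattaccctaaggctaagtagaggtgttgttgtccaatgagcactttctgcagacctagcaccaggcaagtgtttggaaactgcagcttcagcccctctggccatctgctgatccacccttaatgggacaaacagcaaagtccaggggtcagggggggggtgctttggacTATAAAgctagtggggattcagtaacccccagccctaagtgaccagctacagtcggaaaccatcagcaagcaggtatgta

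Each Igf2 promoter held 1 GC box and no TATAAA, with a GC content of 63.3% and 60.7%. The Ins2 promoter held 1 TATAAA and no GC box, at 52.0% GC. Searched on both strands, GGGCGG occurs in 33.1% and TATAAA in 14.2% of the 33469 rat promoter windows, so neither motif is rare; a match is a description of the letters only.

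Total counts ranged from 7871347 to 16874438 a library, and 3 counts, taken as the limit of detection, correspond to 0.132 to 0.773 CPM (counts scaled by library size, after the TMM scaling described below). The LAP+/OC2+ libraries stand apart. Mitochondrial features took 78.6%, 73.7%, 57.6% and 38.9% of their counts in libraries 1 to 4, against 4.11% to 6.42% in LAP+, 4.27% to 5.92% in LAP+/OC2- and 5.31% to 10.3% in adult libraries. The files pair no symbols with identifiers, so the labelled cell types were not checked against marker genes, and lists of insulin-like growth factor genes and imprinted genes were not applied.

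Igf2 was among the most abundant messages of the fetal LAP+ and LAP+/OC2- sorts and far lower in adult hepatocytes, with LAP+/OC2+ between them. The Mir675 feature followed the same order of groups. The Ins2 and Mir483 features were near the limit of detection before transplantation, and the feature nested in Igf2 had 0 counts in all 26 libraries. How fragments overlapping both that feature and Igf2 were assigned is not stated in the labels or files.

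Igf2 in adult hepatocytes stood at 50.7, 47.4, 53.3 and 45.2 CPM in libraries 1 to 4, on library sizes scaled by TMM, edgeR's trimmed mean of M-values. In LAP+ it stood at 5701, 5606, 6716 and 5653 CPM. In LAP+/OC2-, whose libraries are numbered 1, 3, 4 and 5, it stood at 4661, 5699, 6148 and 5076 CPM. LAP+ and LAP+/OC2- overlapped each other, and every library of both lay far above every adult library.

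The LAP+/OC2+ values for Igf2 were 749.5, 540.4, 307.5 and 245.4 CPM in libraries 1 to 4. They did not overlap those of any other pre-transplant group, and the spread among them was wide. Library 1 was highest and library 4 lowest, which is also the order of their mitochondrial share. On raw totals that order did not hold, with 324.3, 256.8, 239.9 and 258.5 CPM in libraries 1 to 4. The part of the mitochondrial share in the spread was not tested. The spread depended on the scaling: the 4 libraries stood at 269.9 ± 37.3 CPM of the raw total and at 871 ± 490.3 CPM of the nuclear total (SD, n = 4).

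The Mir675 feature stood at 21.5, 20.5, 20.7 and 18.1 CPM in adult libraries 1 to 4. Its LAP+ values were 2705, 2325, 2440.0 and 2319 CPM, and its LAP+/OC2- values 2036, 2334, 2684 and 2465 CPM. In LAP+/OC2+ it was 457, 312, 129.8 and 70.5 CPM. As for Igf2, LAP+ and LAP+/OC2- overlapped, and adult and LAP+/OC2+ each stood apart from every other pre-transplant group. How many of all features separate in this way was not counted. In the tests of these separated groups below, 59.3% to 77.5% of features were called, which is a different measure from separation. The separation of either member is therefore a description only and does not set the locus apart.

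**Figure D2:**
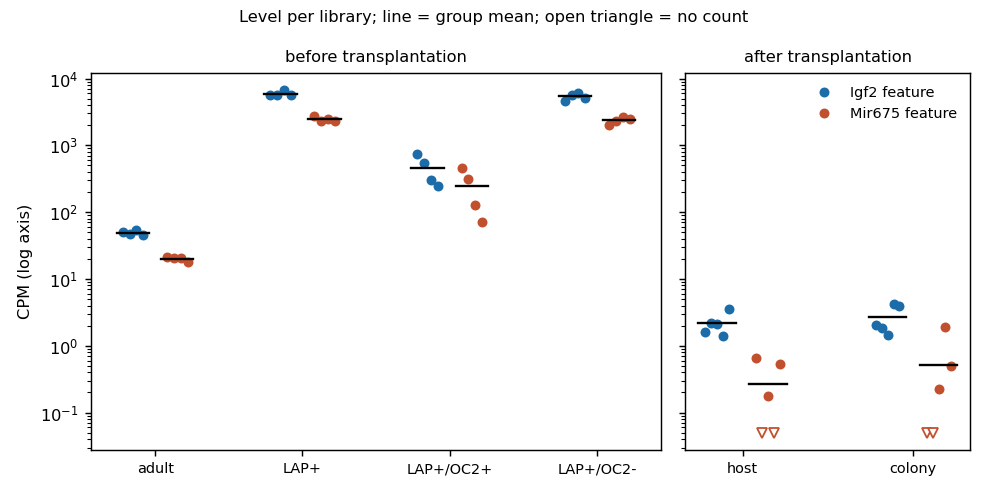
CPM on TMM-scaled library sizes (log axis) of the Igf2 and Mir675 features in each library of the 6 groups; points are libraries, lines are group means and open triangles are libraries with no count. LAP+ and LAP+/OC2- overlap far above adult, LAP+/OC2+ lies between, and host and colony overlap.

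Per kilobase of exon, the Igf2 feature reached 1049 ± 94.5 RPKM (CPM per kilobase of exon; SD, n = 4) in LAP+, 957 ± 117 in LAP+/OC2-, 81.7 ± 40.9 in LAP+/OC2+ and 8.71 ± 0.637 in adult hepatocytes. Ranked per kilobase among 27158 nuclear features of at least 200 nt, it held ranks 38 to 52 in the LAP+ libraries and 46 to 59 in LAP+/OC2-. In LAP+/OC2+ its ranks ran from 335 to 1160 and in adult libraries from 4271 to 4789. Igf2 alone took 0.814% ± 0.0552 of nuclear counts in LAP+ and 0.00505% ± 0.000412 in adult hepatocytes (SD, n = 4). For the Mir675 feature, just 84 nt long, no level per length is given.

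Igf2 averaged 5919 ± 533 CPM in LAP+, 5396 ± 658 in LAP+/OC2-, 461 ± 231 in LAP+/OC2+ and 49.2 ± 3.59 in adult hepatocytes (SD, n = 4 each). The Mir675 feature averaged 2447 ± 181, 2380 ± 271, 242 ± 176 and 20.2 ± 1.46 CPM in the same order. LAP+ thus exceeded adult 120.4-fold for Igf2 and 121-fold for the Mir675 feature on TMM sizes. On raw totals these folds were 166.2 and 167.2, and on nuclear totals 161.3 and 162.3. In bulk RNA, fewer cells expressing a gene and less RNA per cell cannot be told apart.

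In edgeR's quasi-likelihood test over 13818 features, with Benjamini-Hochberg adjustment over all of them, Igf2 was higher in LAP+ than in adult by 6.91 on the log2 scale (SE 0.35, adjusted p = 7.5e-11). The Mir675 feature was higher by 6.92 (SE 0.48, adjusted p = 4.4e-09 by edgeR). Those were the 2 members of 5 that passed the filter on low counts, and both were called. Of all features tested 60.3% were called and 31.7% were called higher, so the call in itself sets neither member apart. The median log2 difference over all features was 0.064.

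LAP+/OC2- against adult gave nearly the same values, 6.78 for Igf2 (SE 0.34, adjusted p = 1.1e-10 by edgeR) and 6.88 for the Mir675 feature (SE 0.48, adjusted p = 5.0e-09 by edgeR). Both tested members were called higher here too, where 59.3% of features were called, 30.9% higher and 28.4% lower. The mean of the 3 fetal sorts exceeded adult by 5.64 for Igf2 (SE 0.31, adjusted p = 7.0e-11 by edgeR) and by 5.79 for the Mir675 feature (SE 0.44, adjusted p = 4.2e-09 by edgeR). Without the LAP+/OC2+ libraries those differences were 6.85 (adjusted p = 6.6e-12) and 6.90 (adjusted p = 4.0e-12), again by edgeR. In the comparison of all 3 sorts 72.4% of features were called, 37.1% higher and 35.3% lower. These comparisons share the adult libraries.

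LAP+/OC2+ exceeded adult by 3.23 for Igf2 (SE 0.29, adjusted p = 2.4e-08 by edgeR) and by 3.58 for the Mir675 feature (SE 0.42, adjusted p = 5.4e-07 by edgeR). Both tested members were called higher, where 77.5% of features were called and 38.9% higher. The fold depends on the scaling: LAP+/OC2+ over adult was 9.37-fold for Igf2 on TMM sizes, 17.3-fold when counts were divided by the nuclear total and 5.80-fold on the raw total. For the Mir675 feature the corresponding values were 12.0, 22.3 and 6.82.

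Against the other fetal sorts LAP+/OC2+ was lower in both genes. The log2 difference from LAP+ was -3.68 for Igf2 (SE 0.30, adjusted p = 1.7e-08 by edgeR) and -3.34 for the Mir675 feature (SE 0.41, adjusted p = 2.0e-06 by edgeR). From LAP+/OC2- it was -3.55 (SE 0.30, adjusted p = 2.4e-08) and -3.30 (SE 0.41, adjusted p = 2.1e-06), again by edgeR. Both tested members were called lower in each, where 67.8% and 67.5% of features were called and 35.9% and 36.6% called lower. LAP+ exceeded LAP+/OC2+ in Igf2 12.8-fold on TMM sizes, 9.35-fold on nuclear totals and 28.7-fold on raw totals. In the Mir675 feature these folds were 10.1, 7.28 and 24.5. The mitochondrial share separates LAP+/OC2+ from both other sorts, and its part in these differences was not tested.

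LAP+/OC2- and LAP+ were not told apart at the locus. The log2 difference was -0.13 for Igf2 (95% interval -0.70 to 0.43) and -0.040 for the Mir675 feature (95% interval -0.83 to 0.75), both with an adjusted p of 1 by edgeR. Of the 2 tested members 0 were called, and 0 had an unadjusted p under 0.05; 0.391% of all features were called. A difference in either direction within these intervals is not detectable with 4 libraries a group.

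**Figure D3:**
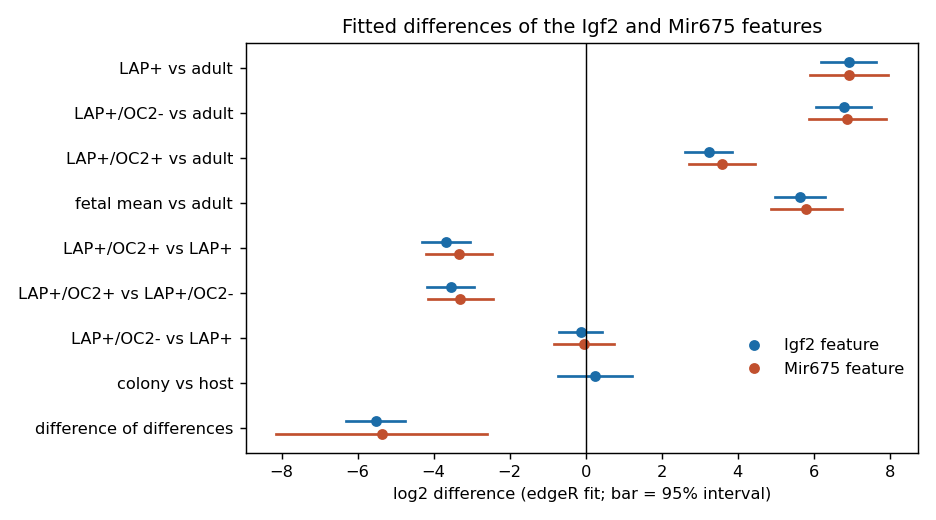
Log2 differences of the Igf2 and Mir675 features in each comparison (edgeR), with points for estimates and bars for 95% intervals. Fetal sorts exceed adult by 3.23 to 6.92, while LAP+/OC2- against LAP+ and colony against host have intervals that include 0.

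In adult, LAP+ and LAP+/OC2- libraries the Mir675 feature stood in a similar ratio to Igf2. Counts over the Mir675 feature divided by those over the Igf2 feature gave 0.424, 0.434, 0.388 and 0.401 in the adult libraries. The LAP+ ratios were 0.474, 0.415, 0.363 and 0.410, and those of LAP+/OC2- were 0.437, 0.410, 0.437 and 0.486. All 3 groups overlapped, at 0.411 ± 0.0211, 0.416 ± 0.0456 and 0.442 ± 0.0317 (SD, n = 4).

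LAP+/OC2+ was the exception in spread. Its ratios were 0.610, 0.577, 0.422 and 0.287 in libraries 1 to 4, a mean of 0.474 ± 0.149 (SD, n = 4). Libraries 1 and 2 lay above every other pre-transplant library and library 4 below every one of them. This ratio does not depend on library scaling. The order is again that of the mitochondrial share, and the part of that share was not tested.

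**Figure D4:**
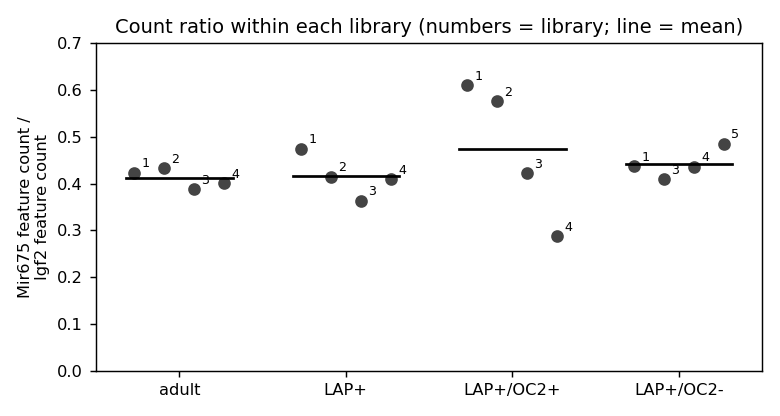
Counts over the Mir675 feature divided by counts over the Igf2 feature in each of the 16 pre-transplant libraries, by group; numbers name the libraries and lines are means. Adult, LAP+ and LAP+/OC2- libraries lie between 0.363 and 0.486, and LAP+/OC2+ libraries spread from 0.287 to 0.610.

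After transplantation the locus gave few counts in both tissues. Igf2 averaged 2.18 ± 0.853 CPM in host and 2.71 ± 1.29 CPM in colony tissue (SD, n = 5 each). In counts, host against colony gave 15 and 31 in animal 242, 30 and 24 in animal 243, 24 and 19 in animal 246, 14 and 38 in animal 248, and 40 and 72 in animal 249. In CPM, the colony was higher in 3 of 5 animals and the groups overlapped.

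With the animal as a block, the log2 difference of colony from host was 0.25 for Igf2 (95% interval -0.72 to 1.21, adjusted p = 0.80 by edgeR over 22303 features). Igf2 was the 1 member of 5 that passed the filter, and it was not called, nor was its unadjusted p under 0.05; 1.17% of features were called, 0.565% higher and 0.61% lower. Without animal 248 the difference was -0.084 (adjusted p = 0.93 by edgeR). The interval's upper end, 1.21, lies below the lowest of the fetal-minus-adult differences, 3.23.

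The Mir675 feature had 6 and 0 counts in host and colony of animal 242, 0 and 0 in animal 243, 2 and 3 in animal 246, 0 and 17 in animal 248, and 6 and 9 in animal 249. Of the 29 counts in colony tissue, 17 came from 1 animal. Its summed ratio to Igf2 was 0.114 in host (14 of 123 counts) and 0.158 in colony (29 of 184). By library the ratio ran from 0 to 0.40 in host and from 0 to 0.447 in colony tissue. Only the highest of each, host of animal 242 and colony of animal 248, reached the pre-transplant range, whose lowest value was 0.287. The remaining libraries were at 0.158 or below, on few counts. Without animal 242 the host ratio was 0.0741, and without animal 248 the colony ratio was 0.0822. Kit and stage change together and cannot be told apart.

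The difference between the stages was itself tested, as colony minus host against fetal mean minus adult, in 1 fit of all 26 libraries. It was -5.53 on the log2 scale for Igf2 (SE 0.38, adjusted p = 2.0e-12 by edgeR) and -5.36 for the Mir675 feature (SE 1.31, adjusted p = 0.0036 by edgeR). Without the LAP+/OC2+ libraries these values were -6.59 (adjusted p = 1.5e-14) and -6.31 (adjusted p = 0.00014), by edgeR. That setting was not planned in advance. The Mir675 value also moved with single animals, to -4.43 without animal 242 (adjusted p = 0.015) and -6.58 without animal 248 (adjusted p = 0.00017). For Igf2, the fetal excess of the sorted cells was larger than the colony's excess over host in each of these fits. For the Mir675 feature the estimates had the same direction, but its post-transplant counts are too few to conclude from them. Of the 3 members tested, 2 were called, both lower, where 33.5% of 23459 features were called and 19.3% lower. The Mir675 feature, with 14 host and 29 colony counts, had not passed the filter of the colony test. It passed the filter of this fit through its pre-transplant counts, so its call does not resolve a difference of colony from host. The Ins2 feature passed this filter but gave no finite error, its adult and LAP+/OC2+ counts being 0.

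Ins2, whose product insulin is made by pancreatic beta cells, had few counts in any library. Before transplantation its counts were 4, 12, 3 and 6 in LAP+ and 6, 5, 6 and 27 in LAP+/OC2-, and 0 in every adult and every LAP+/OC2+ library. A count of 0 allows up to 0.196 to 0.225 CPM in the adult libraries and up to 0.345 to 0.773 CPM in those of LAP+/OC2+. After transplantation host and colony gave 2 and 9 in animal 242, 0 and 6 in animal 243, 1 and 6 in animal 246, 0 and 2 in animal 248, and 4 and 16 in animal 249.

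The colony was higher in 5 of 5 animals, with 39 counts in all against 7. That pattern was noticed after the values were seen. How many of all features were higher in the colony of 5 of 5 animals was not counted, so the pattern does not set Ins2 apart. Over all features tested in colony against host, the median log2 difference was 0.106. The mean difference of log2(CPM + 1) was 0.42 ± 0.0981 (SD, n = 5), a scale that understates changes of low counts, and 5 animals are too few for a sign-flip test to pass the threshold. The feature did not pass the low-count filter of the colony test.

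Mir483 was counted rarely. Its 30 counts comprised 10 in LAP+, 7 in LAP+/OC2-, 5 in host and 8 in colony tissue, with 0 in adult and LAP+/OC2+ libraries. Every LAP+ and LAP+/OC2- library held 1 to 3 counts, at or under the limit of detection, and the feature did not pass the low-count filter. Without that filter edgeR called it higher than adult in LAP+ (adjusted p = 0.014) and in LAP+/OC2- (adjusted p = 0.034). In those fits 8477 and 8354 of 23217 features were called.

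Within 1000000 nt on either side of the window lie 43 other features, of which 20 passed the pre-transplant filter. Of these, 11 were called higher and 4 lower in the fetal mean than in adult by edgeR, 75% called against 72.4% of all features. Their median log2 difference was 0.54, against 0.056 over all features. The nearest tested features, ENSRNOG00000020354 before it and ENSRNOG00000056268 after it, differed by 0.76 (SE 0.13, adjusted p = 4.0e-05 by edgeR) and 1.46 (SE 0.28, adjusted p = 0.00017 by edgeR).

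The most raised neighbour was ENSRNOG00000059500, at 216661080 to 216663721, with a log2 difference of 5.22 (SE 0.59, adjusted p = 7.2e-07 by edgeR). It averaged 8.96 ± 1.45 CPM in adult hepatocytes and 638 ± 315 CPM in LAP+ (SD, n = 4). The most lowered was ENSRNOG00000020562, at 216677373 to 216700641, with a difference of -3.65 (SE 0.14, adjusted p = 1.1e-12 by edgeR). It averaged 249.5 ± 31.3 CPM in adult hepatocytes, 36.7 ± 1.58 in LAP+ and 6.20 ± 2.51 in LAP+/OC2+ (SD, n = 4). Both lie on the same side of the window, and they moved in opposite directions. In colony against host, 1 of 32 tested neighbours was called higher and 1 lower by edgeR, 6.25% against 1.17% of all features.

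**Figure D5:**
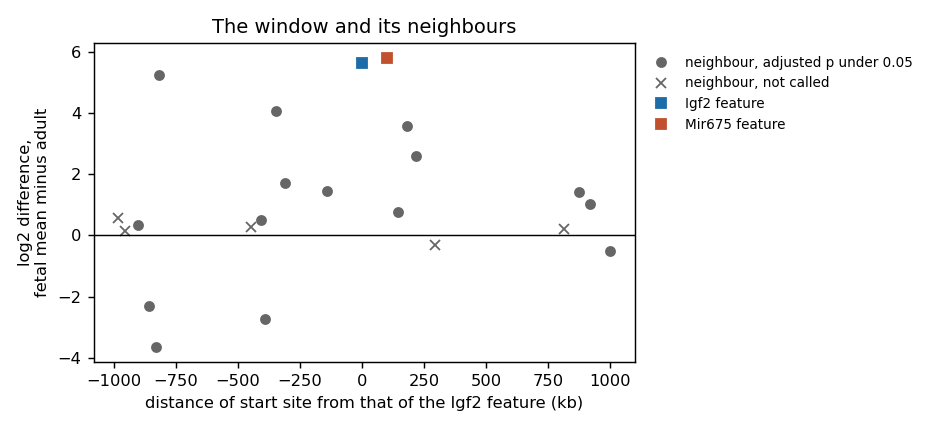
Log2 difference of the fetal mean from adult for the tested features within 1000000 nt of the window and for the Igf2 and Mir675 features, against the distance in kb of each start site from that of the Igf2 feature; filled circles are neighbours with an adjusted p under 0.05 and crosses the others. Igf2 and the Mir675 feature stand at 5.64 and 5.79, and the neighbours range from -3.65 to 5.22.

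Over the 16 pre-transplant libraries, the features outside the window whose log2(CPM + 1) followed Igf2 most closely were ENSRNOG00000018991 and ENSRNOG00000010262, both on chromosome 3. Their Pearson r was 0.998 and 0.997. The Mir675 feature held rank 4 of 8785 features, at 0.997. The libraries fall into 4 groups and share 1 scaling, and 259 features, 2.95%, had an r over 0.9; the values are descriptions of likeness in these libraries. ENSRNOG00000010262 averaged 4991 ± 680 CPM in LAP+ and 47.6 ± 3.07 in adult hepatocytes (SD, n = 4). After transplantation it averaged 6.65 ± 2.23 CPM in colony and 6.23 ± 3.55 in host tissue (SD, n = 5).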

How the data were processed

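Bulk RNA-seq was measured in 26 rat libraries, 16 before and 10 after transplantation. The authors deposited raw counts per feature for each library, with coordinates and exonic length; the submitters' processing notes name as tools featureCounts (Subread 1.5.2), STAR 2.5.2b, Trimmomatic 0.36 and bcl2fastq 2.17. Neither build nor strand setting is stated there, so reads of overlapping antisense transcripts cannot be told apart. Per the labels' protocols, cells and laser-captured tissue used different RNA extraction and library kits, so stage and kit cannot be told apart.

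Counts were tested with edgeR 4.0.16 (R 4.3.3) by its robust quasi-likelihood F test after filterByExpr and TMM scaling, with Benjamini-Hochberg adjustment over all features tested and a threshold of 0.05. The 16 pre-transplant libraries were fitted together without a block; the 10 post-transplant libraries with the animal as a block, since the labels give colony and host the same animal numbers. The difference between the stages was fitted on 26 libraries. Same-numbered colony and host libraries had correlations of deviations from -0.247 to 0.486 in the 5 animals. DESeq2 1.42.0, limma-voom (limma 3.58.1) and other filters, scalings, blocks and left-out libraries were the alternatives. The code was tested on simulated data.

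CPM use TMM-scaled library sizes unless another total is named. Total counts of 7871347 to 16874438 set the detection limit of 3 counts; limits cover counting error only. Nothing in the labels says how replicates were collected beyond biological replicate numbers, so p-values measure the spread between these libraries. The members and lists were chosen with earlier results of these data known. Besides the members, the features named were, by rule, the 2 most correlated with Igf2 outside the window, the called neighbours with the highest and the lowest difference that reached 10 CPM in their higher group; the nearest tested feature on each side was added after seeing the data.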

Additional observations from a re-analysis of the deposited data

Results flagged for a closer look

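In LAP+, library 3 stood apart from the other 3 in Igf2, at 6716 CPM against 5606 to 5701. On nuclear totals its 8684 was still the highest, but the 4 libraries were spread more evenly. In colony tissue, animal 248 stood apart in the Mir675 feature at 1.88 CPM, from 17 counts. In LAP+/OC2-, library 5 stood apart in the Ins2 feature at 1.33 CPM, from 27 counts. In all 26 sets of values, the members' levels within a group and the count ratio of Mir675 to Igf2 within a group, were examined for a library far from the others, and chance marks about 1 in 20.

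The colony-minus-host and fetal-minus-adult differences differed from each other by -5.53 on the log2 scale for Igf2 and by -5.36 for the Mir675 feature, both past the threshold by edgeR. The Mir675 feature had too few counts to pass the filter of the colony test itself. Stage, kit and material change together in the comparison of the 2 differences and cannot be told apart.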

How the results depend on the processing

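Of 350 alternative values for the 14 log2 differences past the threshold, 350 kept their direction and their side of it. These are not independent checks, and some could hardly change a result. Before transplantation the filter by group size repeated the main fit, and other settings left out a library of a group outside the comparison. The values also include the Mir675 difference between the stages, which rests on few post-transplant counts. By limma-voom the difference of LAP+/OC2+ from LAP+/OC2- in the Mir675 feature was -3.91, against -3.30 by edgeR. Without the low-count filter, the members called rose from 2 to 4 in LAP+ against adult and in LAP+/OC2- against adult. The Ins2 and Mir483 features joined there with adult counts of 0, where 8477 and 8354 of 23217 features were called. The members called rose from 2 to 3 in LAP+/OC2+ against LAP+/OC2- and against LAP+, where Ins2 was called lower by edgeR (adjusted p = 0.0053 and 0.023). Its LAP+/OC2+ counts were 0, and 10547 of 23217 features were called against LAP+/OC2-. Near 0, the difference of LAP+/OC2- from LAP+ in the Mir675 feature changed sign from -0.040 to 0.041 by limma-voom and to 0.040 with the replicate block; leaving out 1 library gave -0.10 to 0.029, with 0.013 without LAP+ library 1 and 0.029 without LAP+/OC2- library 1. Same-numbered pre-transplant libraries gave correlations of deviations from -0.507 to 0.214 (21 pairs). Colony and host of the same animal gave -0.247 to 0.486, so this measure cannot settle whether the pre-transplant numbers mark pairs. The replicate block changed no call of a member. For Igf2 in colony against host, leaving out 1 animal gave -0.084 (without 248) to 0.45. The number of all features called there was 262, and depended on the setting: 717 by DESeq2, 3205 by limma-voom, 751 without a filter, 6 with a filter by group size (added after seeing the data), 6 with the stricter filter, 0 without the replicate block, and 0 to 2683 leaving out 1 animal (0 without 249, 5 without 242, 130 without 243, 158 without 248, 2683 without 246); Igf2 was called under none of them. In LAP+/OC2- against LAP+, 54 features were called, with 208 by DESeq2, 183 by limma-voom and 82, 98 and 95 without adult library 2, LAP+ library 2 and LAP+ library 3. Of 24 levels on raw or nuclear totals, 14 stayed within 1 SD. The causes were not tested. At 14 to 72 counts of Igf2 a library after transplantation, depth limits what can be seen there.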

Other observations

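Igf2 and the Mir675 feature were among the most abundant LAP+ features with the lowest adult level relative to LAP+. Of 59 nuclear features with at least 1000 CPM in LAP+, the Mir675 feature had the lowest adult level as a percentage of its LAP+ level, 0.826%, and Igf2 the next, 0.830%. The following values were 0.954%, 1.02% and 1.55%, and the median was 81.8%. By adult library, Igf2 stood at 0.857%, 0.80%, 0.901% and 0.764% of its LAP+ mean, and the Mir675 feature at 0.879%, 0.839%, 0.845% and 0.740%, so their order cannot be told apart. These percentages are on TMM sizes. On raw and nuclear totals the adult mean was 0.602% and 0.620% of the LAP+ mean for Igf2. For the Mir675 feature it was 0.598% and 0.616%. The 59 features split widely: 12 were under 5% and none lay between 5% and 25%. Among 796 features of 100 to 1000 CPM in LAP+, 2 stood below Igf2, at 0.515% and 0.629%. This comparison was chosen after the values were seen, and its cuts were set on LAP+, where both members are high. No test was made, so the order of the members against the features that follow is not settled.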
